A study of Mus musculus with 9 samples.

Results

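The Ly6 genes Ly6a, Ly6c1, Ly6c2, Ly6d, Ly6e and Ly6g were taken by their symbols from the 31053 genes counted, which gave 6 genes. Their RNA was followed across marrow cell classes and across 3 mouse strains. Femur bone marrow had been collected from 9 female mice aged 9 to 10 weeks, and 1 single cell library was made from each mouse with 10x Genomics 3' v3.1 chemistry. There were 3 mice of the New Zealand Black strain (NZB), 3 of the New Zealand White strain (NZW), and 3 of NZBWF1, the first generation hybrid of these parents. NZBWF1 mice develop a lupus-like disease with age, no mouse was treated, red cells had been lysed before loading, and all mice were bought from the same supplier and delivered together.

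Ly6 proteins are small, rich in disulfide bonds, and held on the outer face of the cell membrane by a glycosylphosphatidylinositol (GPI) anchor. In mouse marrow they are used as surface marks: Ly6a is Sca-1, by which stem cells are sorted, Ly6c1 and Ly6c2 encode the Ly6C antigen of inflammatory monocytes, Ly6g encodes the Ly6G antigen of neutrophils, and Ly6d marks early B lineage cells. Ly6e is expressed in many tissues, and Ly6a and Ly6e are known to be induced by interferons. RNA and not protein was measured here.

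All 6 genes lie on chromosome 15 of the mouse within 397.1 kb (GRCm38, annotation GENCODE vM21, matched to the deposited gene identifiers). Ly6d (ENSMUSG00000034634) is at chr15:74762056-74763620 on the minus strand and Ly6e (ENSMUSG00000022587) at chr15:74955051-74959905 on the plus strand. Ly6a (ENSMUSG00000075602) is at chr15:74994877-74998031, Ly6c1 (ENSMUSG00000079018) at chr15:75044018-75048830, and Ly6c2 (ENSMUSG00000022584) at chr15:75108158-75111970, all on the minus strand. Ly6g (ENSMUSG00000022582) is at chr15:75155240-75159126 on the plus strand. The coding sequences of Ly6c1 and Ly6c2 were identical at 387 of 396 bases (97.7%). The next closest pair was Ly6a and Ly6g at 83.2%, and Ly6d and Ly6e were 49.4% to 53.0% identical to every other member.

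The near identity of Ly6c1 and Ly6c2 bears on every value of this pair, so the last 120 bases of both coding sequences, stop codon included, are shown here from the reference. They lie on the minus strand of GRCm38 at chr15:75045402-75045521 and chr15:75108543-75108662. Capitals mark the 2 positions at which they differ.
Ly6c1: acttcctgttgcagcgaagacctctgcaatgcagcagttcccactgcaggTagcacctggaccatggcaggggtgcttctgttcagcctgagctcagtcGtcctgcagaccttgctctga
Ly6c2: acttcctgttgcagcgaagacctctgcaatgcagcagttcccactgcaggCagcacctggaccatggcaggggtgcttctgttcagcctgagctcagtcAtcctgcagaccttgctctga
Of the 410 windows of 91 bases within the last 500 bases of the transcript, 34 (8.29%) were the same in Ly6c1 and Ly6c2. No such window of the other 4 members was found in a transcript of another gene. Most of the 3' end that this chemistry reads therefore tells the pair apart in the reference. Whether alleles of NZB or NZW were assigned to the wrong member of the pair was not tested.

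Promoter sequences for Ly6c1, Ly6c2 and Ly6g were held in the RefSeq promoter set used here (GRCm38.p6), while none was found there for Ly6a, Ly6d and Ly6e. The 3 are shown because they were the members available. They also serve as surface marks of myeloid cells. Each runs from 250 bases before to 50 bases after the RefSeq start nearest to the GENCODE start (7, 1 and 21 bases away), and capitals mark GAGGAA, the core of the site bound by the myeloid factor PU.1, on either strand (TTCCTC is its reverse). The 3 stretches lie at chr15:75048788-75049087 (minus strand), chr15:75111922-75112221 (minus strand) and chr15:75155011-75155310 (plus strand).
Ly6c1: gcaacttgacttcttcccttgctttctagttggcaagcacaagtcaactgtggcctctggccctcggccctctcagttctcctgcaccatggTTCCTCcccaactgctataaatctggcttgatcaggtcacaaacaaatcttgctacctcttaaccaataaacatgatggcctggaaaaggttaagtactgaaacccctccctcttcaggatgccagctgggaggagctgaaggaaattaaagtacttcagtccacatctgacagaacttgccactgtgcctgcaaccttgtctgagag
Ly6c2: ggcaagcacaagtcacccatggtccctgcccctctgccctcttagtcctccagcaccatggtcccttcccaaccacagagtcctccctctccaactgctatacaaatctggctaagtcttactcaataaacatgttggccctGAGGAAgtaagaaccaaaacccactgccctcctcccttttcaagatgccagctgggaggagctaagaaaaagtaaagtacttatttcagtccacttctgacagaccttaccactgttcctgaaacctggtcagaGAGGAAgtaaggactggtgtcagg
Ly6g: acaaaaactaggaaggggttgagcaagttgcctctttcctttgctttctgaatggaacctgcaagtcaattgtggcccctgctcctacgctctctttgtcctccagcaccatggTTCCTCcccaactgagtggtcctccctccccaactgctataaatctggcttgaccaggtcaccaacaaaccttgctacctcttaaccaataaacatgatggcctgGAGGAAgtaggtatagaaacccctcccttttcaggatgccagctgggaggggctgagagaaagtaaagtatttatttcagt
The Ly6c1 stretch held 1 such match, and the Ly6c2 and Ly6g stretches held 2 each. These counts depend on the edges: stretches at other RefSeq starts, 167, 33 and 89 bases from the GENCODE start, held 2, 2 and 3. The Ly6c1 stretch shown ends within a further GAGGAA, so the members are not compared by these counts. Of 32851 promoters of the same length, 28.3% held at least 1. The interferon motifs TTCNNNGAA (GAS, both strands) and ISRE, found in 8.3% and 3.44% of promoters, had no match in these 3 stretches. Ly6a and Ly6e, known to be induced by interferons, were not covered by this search. These are the letters of the reference strain and not of NZB or NZW.

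After limits on quality and the removal of likely doublets, 37593 cells with 119415839 unique molecular identifiers (UMIs, each standing for a counted RNA molecule) were kept, between 7858010 and 17327216 UMIs per mouse and a median of 2139 to 2475 per cell. Of these cells, 28475 were placed in 21 classes by marker RNA, with no Ly6 gene among the markers. Each class is named for the cell it resembles by those markers. In 18 classes at least 2 mice of each strain had 10 or more cells, and these were tested. Cells close to the limit of a class were, of the tested classes, most common among nonclassical monocytes (67.4%), HSPC (hematopoietic stem and progenitor cells, 44.6%) and T cells (30.5%). Markers of other cells were found in the classes on which most results rest. Mature B cells held a median of 21 UMIs of the conventional dendritic list and 12 of the plasma list per cell, beside 14 of the B lineage list and 11 of their own, where the dendritic list holds H2-Aa, H2-Ab1 and Cd74 of antigen presentation and the plasma list holds Ighm, all of which B cells are also known to express. Plasmacytoid dendritic cells held 12 UMIs of the conventional dendritic list beside 18 of their own, classical monocytes 7 beside 17, and T cells 4 of the NK list beside 7. Mature neutrophils held 271 neutrophil marker UMIs, and 4.26% of them had a UMI of any monocyte marker, 88.19% of the conventional dendritic list, 53.01% of the plasma list and 45.06% of the basophil list. The part of these other cells in the results was not tested. Among the cells kept, 161 barcode sequences occurred in more than 1 library (324 cells). Levels are given as CPM, the UMIs of a gene per 1000000 UMIs summed over the cells of a class in a mouse. The CPM that free RNA could add to a member was estimated at 4.59 or less, so levels near it are not read as expression. Levels of different genes are not compared except for the shares of Ly6c1 and Ly6c2.

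**Figure D1:**
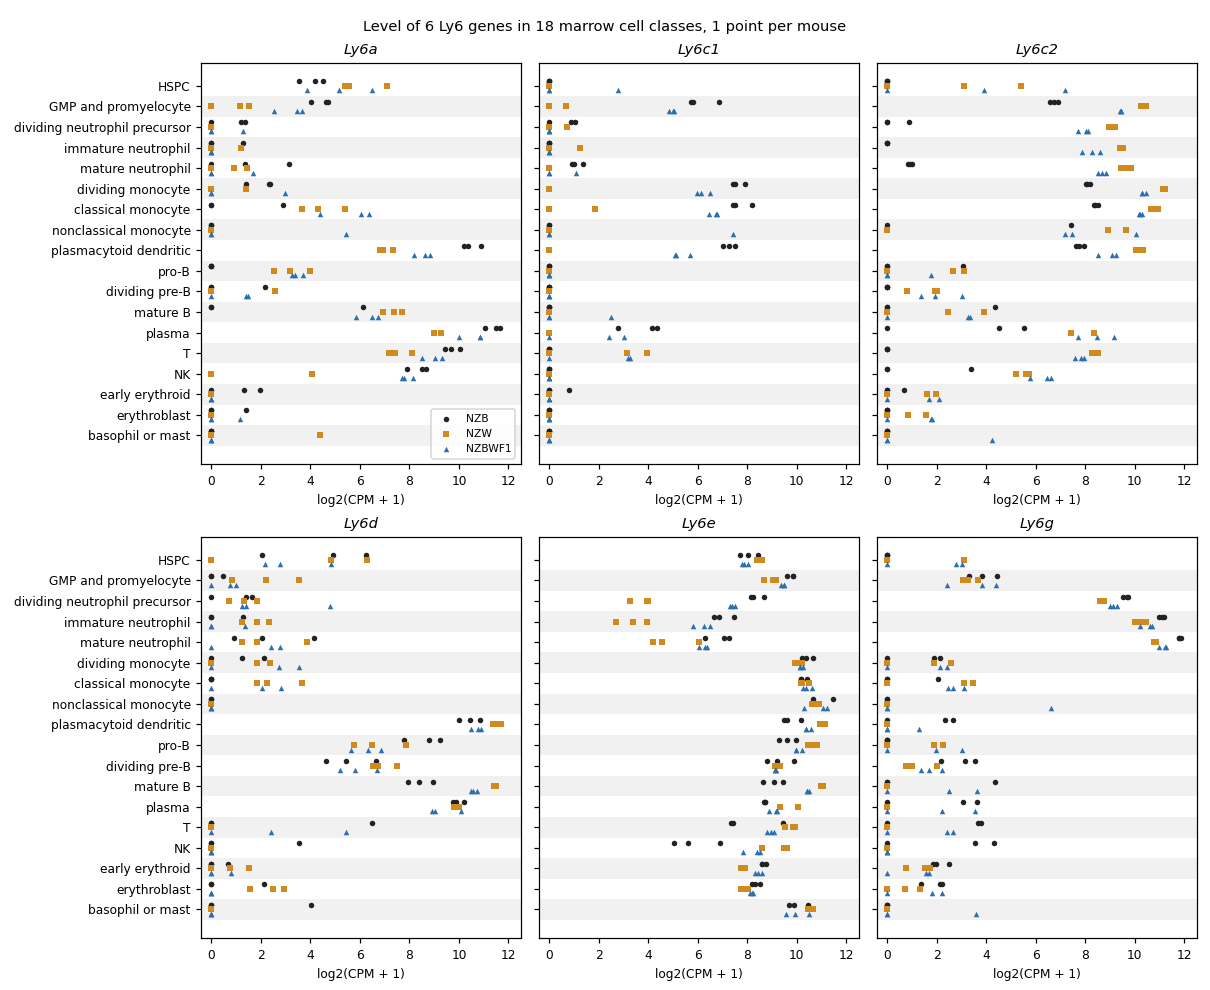
Level of each member (log2 of CPM + 1, horizontal axis) in the 18 tested classes (vertical axis), with 1 point per mouse and strains by colour and shape. Ly6g stood high in the 3 neutrophil classes, Ly6d in plasmacytoid dendritic cells, mature B cells and plasma cells, and Ly6c1 in NZW had at most 3 UMIs in any class, those 3 in T cells.

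The 6 genes filled the marrow in different patterns. Ly6g was the narrowest: averaged over the strain means it reached 2544 CPM in mature neutrophils, 1608 in immature neutrophils and 586.7 in dividing neutrophil precursors, and 11.96 or less in the other 15 classes. All 3 steps of this order, down to the granulocyte-monocyte progenitors with promyelocytes (GMP, 11.96 CPM), were seen in 9 of 9 mice (p = 0.00391 each, exact sign-flip permutation, two-sided). Ly6c2 was highest in dividing monocytes (1302 CPM) and classical monocytes (1095), followed by GMP (708.3), plasmacytoid dendritic cells (630.2), mature neutrophils (405.0) and immature neutrophils (342.4). In this order classical monocytes exceeded GMP, and plasmacytoid dendritic cells exceeded mature neutrophils, in 9 of 9 mice with the same p. Mature exceeded immature neutrophils in 9 of 9 as well, but in the 3 NZB mice by 1 UMI against 0, so that order is not read in NZB. Ly6c1 followed the monocyte line and the plasmacytoid dendritic cells but stayed near 0 in neutrophils. Its highest average over the strain means was 104.5 CPM in classical monocytes, from 213.1 in NZB, 0.850 in NZW and 99.6 in NZBWF1.

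Averaged over the strain means, Ly6a was highest in plasma cells (1620 CPM), which had it among their 10 leading genes. Plasmacytoid dendritic cells (657.6), T cells (518.4) and NK cells (190.9) followed. The NK average joins 333.7 CPM in NZB, 5.26 in NZW and 233.7 in NZBWF1, and in NZW mature B cells (165.1) stood above NK cells. HSPC, in which Sca-1 serves as a mark of stem cells, held 45.59 CPM, and T cells exceeded NK cells, their neighbours in the order of Ly6a, in 9 of 9 mice (p = 0.00391, exact sign-flip permutation). Among the tested classes, Ly6d was highest in plasmacytoid dendritic cells (2018 CPM), mature B cells (1578) and plasma cells (882.1), and lower in pro-B cells (209.1) and dividing pre-B cells (81.59). Small pre-B cells, which were not tested and also held much Ly6d, are left out of this order and given below. No pair of neighbours in the order of Ly6d passed the adjusted test. Ly6e was found in every class, from 70.39 CPM in immature neutrophils to 1967 in nonclassical monocytes. T cells again exceeded NK cells in 9 of 9 mice for Ly6e. Over all members, 8 of 102 pairs of neighbours reached 0.00391, the smallest p that 9 mice allow, with an adjusted p of 0.0498 (exact permutation). All 8 calls depend on the Ly6c2 pair of mature and immature neutrophils: with no difference counted in a mouse that had 3 or fewer UMIs in both classes, a setting chosen after seeing the data, 7 pairs kept this p, their adjusted p was 0.0569, and 0 passed. Among the 6428 genes with at least 50 CPM in some class, 4.73% of such pairs reached it. With free RNA subtracted, or in cells of at least 2000 UMIs, 0 pairs passed either. The order of neighbouring classes is thus given by its counts of mice and not as a call.

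Over class means, the genes whose pattern was most like that of a member were found by Pearson's r of log2(CPM + 1) over the 18 classes among 6428 genes, as a description only, since the classes come from the same libraries. For Ly6g these were Ltf (r = 0.989), Itgb2l (0.986) and Ppp1r42 (0.984), where Ltf encodes lactoferrin and had been used to define neutrophils. For Ly6d they were Spib (0.937), a transcription factor of B and plasmacytoid cells, Iglc3 (0.934) and Srpk3 (0.926). Ly6a was closest to Ctso (0.873), Fam214a (0.865) and Epcam (0.857). Ly6c1 was closest to Rnd3 (0.905), Ifi211 (0.892) and Arhgef10l (0.867), Ly6c2 to Inpp4a (0.870), Tmem38b (0.863) and Nrp1 (0.860), and Ly6e to Ccdc50 (0.911), Ufl1 (0.904) and Tmem192 (0.900).

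The parents were compared next, to see which members a strain carries at another level, in each class, by the edgeR quasi-likelihood test on UMIs summed per mouse with Benjamini-Hochberg adjustment over all genes tested in the class. Of the 108 combinations of member and class, 48 passed the filter on low counts, with every member passing in at least 1 class. NZB and NZW differed in 33 of these 48 tests (18 higher and 15 lower in NZB), while 7.43% of all tests over genes and classes were called (3.73% higher, 3.7% lower). The mice of the parents did not overlap in 39 of the 48, against 24.5% of all tests. These counts describe the tests that passed. In 11 of the 48 a parent had 3 or fewer UMIs in all, so the gene passed through the other parent and had to differ, and 9 of these 11 were called. With more than 3 UMIs in both parents, 24 of 37 were called, beside 7.19% of all such tests. Ly6c2 was lower in NZB in all 8 of its calls, but in 4 of these, the 3 neutrophil classes and T cells, NZB had 0 to 3 UMIs and the filter fixes the direction. Ly6d was lower in both of its calls. Ly6g was higher in NZB in 3 of 4 tests. Ly6c1 was higher in NZB in 4 of 4, a count that the filter fixes, since NZW had 0 to 2 UMIs in each. By contrast, Ly6a (4 higher, 1 lower) and Ly6e (7 higher, 4 lower) were called in both directions. The 1 lower call of Ly6a, in mature B cells, rested on 4 NZB UMIs, all from NZB mouse 1. The scaling between libraries (TMM) moved the median log2 difference of genes over 50 CPM by 0.904 in plasma cells, 0.168 in mature neutrophils, 0.134 in immature neutrophils and -0.107 in GMP relative to the ratio of mean CPM, and by between -0.0502 and 0.0463 in the other 14 classes.

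**Figure D2:**
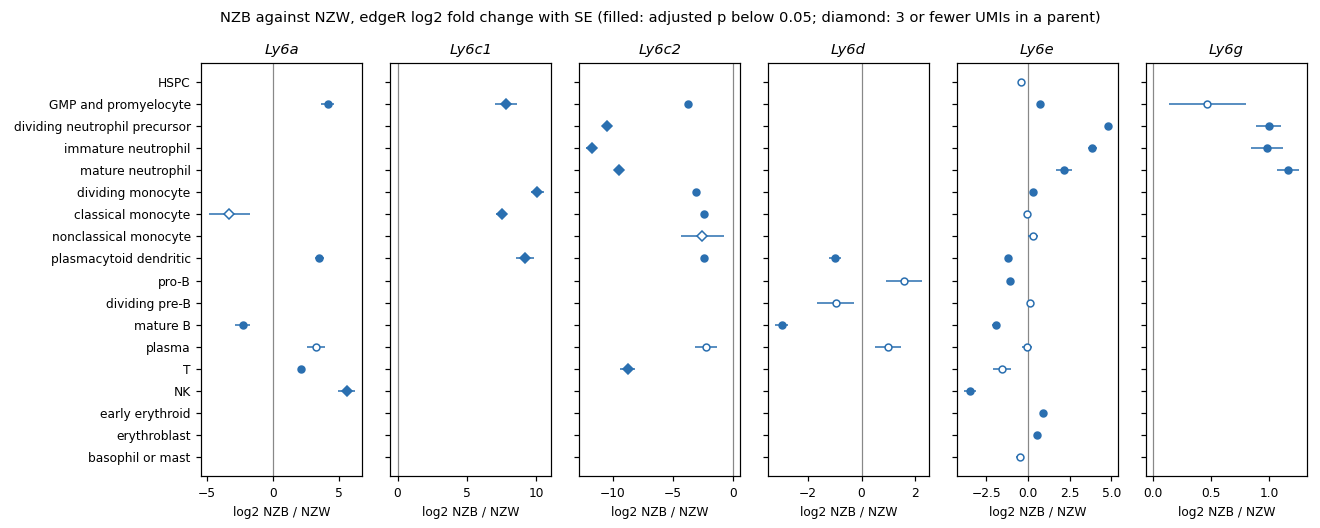
Log2 fold change of NZB over NZW from edgeR (horizontal axis, differing in scale between panels) for each member and class that passed the filter on low counts, with SE. Filled symbols had an adjusted p below 0.05, and diamonds mark tests in which a parent had 3 or fewer UMIs, whose fitted size is not read. Ly6c1 and Ly6c2 lay on opposite sides of 0 and Ly6e on both.

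Ly6c1 and Ly6c2, the pair that encodes Ly6C, went opposite ways in the same cells. In classical monocytes, which carry Ly6C on their surface, Ly6c2 was at 323.9, 331.2 and 367.4 CPM in the NZB mice, at 1608, 1930 and 1750 in the NZW mice, and at 1133, 1171 and 1238 in the NZBWF1 mice. The 3 strains did not overlap. NZB was lower than NZW by a log2 fold change of -2.37 ± 0.12 (SE, adjusted p = 1.4e-22, edgeR). Ly6c1 was at 290.3, 178.4 and 170.6 CPM in the NZB mice and at 107.5, 87.0 and 104.1 in the NZBWF1 mice. In NZW, 2 Ly6c1 UMIs were found among 2171826 in this class, and NZB was 224-fold higher (95% counting interval 61.2 to 1867).

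Dividing monocytes showed the same opposite order. For Ly6c2 the NZB mice were at 268.0, 262.8 and 291.9 CPM, the NZW mice at 2382, 2402 and 2260, and the NZBWF1 mice at 1232, 1389 and 1233. The change from NZW to NZB was -3.11 ± 0.12 on the log2 scale (adjusted p = 4.5e-32, edgeR). Ly6c1 in these cells was at 239.2, 178.1 and 171.8 CPM in NZB and at 68.2, 61.0 and 89.0 in NZBWF1. NZW had 0 Ly6c1 UMIs of 2111054, so NZB was at least 132-fold higher (a floor of 3 UMIs over the strain).

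The same held in GMP and in plasmacytoid dendritic cells, which produce type I interferon. In GMP, Ly6c2 was at 119.1, 93.3 and 105.8 CPM in NZB and at 1199, 1414 and 1389 in NZW (log2 fold change -3.77 ± 0.13, adjusted p = 7.3e-38, edgeR), whereas Ly6c1 was at 114.7, 51.2 and 55.4 in NZB with 1 UMI in NZW (308-fold, counting interval 54.9 to 12180). In plasmacytoid dendritic cells, Ly6c2 was at 198.1, 213.8 and 243.0 CPM in NZB and at 1167, 1288 and 1051 in NZW (-2.39 ± 0.13 on the log2 scale, adjusted p = 8.0e-26, edgeR). Ly6c1 in these cells was at 180.8, 151.0 and 129.4 CPM in NZB, and NZW had 0 UMIs of 784493, a difference of at least 40.4-fold.

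Neutrophils set NZB apart further, for Ly6c2 was almost absent from them. In dividing neutrophil precursors 1 Ly6c2 UMI was found in the NZB mice, against 584.8, 489.5 and 496.4 CPM in the NZW mice (2295 UMIs), a ratio of 2022 with a counting interval of 362.5 to 79890. In immature neutrophils the NZB mice had 0 UMIs of 1675452 and the NZW mice 742.9, 681.4 and 730.3 CPM, so NZW was at least 400.8-fold higher. In mature neutrophils the NZB mice had 1 UMI each, at 0.790, 0.986 and 0.889 CPM, and the NZW mice 922.5, 701.2 and 796.7 CPM. The NZBWF1 mice were at 360.2, 403.1 and 458.8 CPM in mature neutrophils and overlapped with neither parent. Ly6c1 was near 0 in all 3 neutrophil classes of every strain, with at most 4 UMIs over the mice of a strain. T cells of NZB also had 0 Ly6c2 UMIs of 398183, against 310.9, 365.7 and 344.6 CPM in NZW, which was at least 45.05-fold higher.

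The low Ly6c2 of NZB was compared between cell classes in a model with the mouse as a block. The log2 difference of NZB from NZW was less negative in classical monocytes than in GMP by 1.38 ± 0.14 (adjusted p = 1.5e-19, edgeR; 3.47% of genes called). Comparisons with immature neutrophils, where NZB had no Ly6c2 UMI and the gene passed the filter through the other strains, are not read. Between plasmacytoid dendritic cells and classical monocytes the strain difference in Ly6c2 did not pass the test, at 0.05 ± 0.15 (adjusted p = 0.936, edgeR).

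Ly6c1 and Ly6c2 were also summed and tested as 1 gene. The sum was lower in NZB than in NZW by a log2 fold change of -1.68 ± 0.12 in classical monocytes, -2.33 ± 0.11 in dividing monocytes, -3.01 ± 0.13 in GMP and -1.62 ± 0.11 in plasmacytoid dendritic cells, with adjusted p of 3.3e-17, 2.3e-26, 3.4e-29 and 9.8e-26 in the same order (edgeR). The assignment of reads within the pair, and the loss of reads of either gene through differences from the reference, were not tested.

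**Figure D3:**
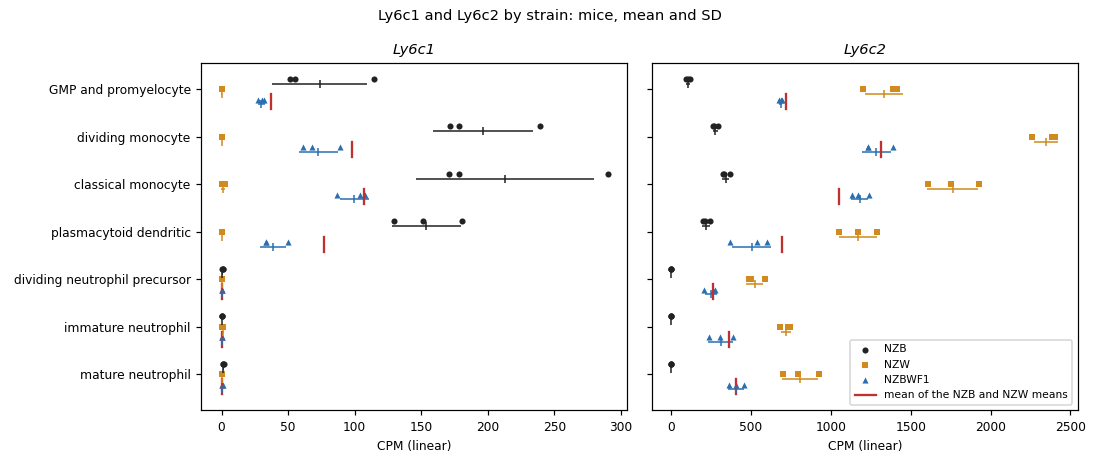
Ly6c1 and Ly6c2 in 7 classes, in CPM on a linear axis, with 1 symbol per mouse, the mean and SD of each strain below it, and a red bar at the mean of the NZB and NZW means. NZB was highest for Ly6c1 and lowest for Ly6c2 in GMP, both monocyte classes and plasmacytoid dendritic cells, and the 3 neutrophil classes of NZB held almost no UMI of either.

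Ly6g, the neutrophil antigen, was the member with the most even difference between the parents. In mature neutrophils it was at 3501, 3715 and 3474 CPM in NZB, at 1840, 1781 and 1742 in NZW, and at 2014, 2427 and 2404 in NZBWF1. The strains did not overlap, and NZB exceeded NZW by a log2 fold change of 1.17 ± 0.10 (adjusted p = 1.4e-11, edgeR). The difference was 0.98 ± 0.14 in immature neutrophils and 0.996 ± 0.11 in dividing neutrophil precursors (adjusted p = 5.2e-06 and 6.3e-12, edgeR). In GMP, where the level was 11.96 CPM, Ly6g did not pass the test (0.47 ± 0.33, adjusted p = 0.422, edgeR). The difference of the strains in Ly6g did not pass a test between immature neutrophils and GMP (0.51 ± 0.34, adjusted p = 0.537, edgeR). Thinned to 1000 UMIs, 95.1% ± 0.65 of mature neutrophils of NZB had a Ly6g UMI (SD, n = 3), against 78.2% ± 2.1 in NZW and 87.9% ± 2.0 in NZBWF1.

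Ly6e, found in every class, was lower in the neutrophils of NZW and higher in its mature B, pro-B, NK and plasmacytoid dendritic cells. In dividing neutrophil precursors it was at 285.2, 407.1 and 302.2 CPM in NZB, at 8.63, 14.4 and 14.95 in NZW, and at 167.6, 181.5 and 154.2 in NZBWF1. NZB exceeded NZW by 4.78 ± 0.17 on the log2 scale (adjusted p = 5.9e-33, edgeR), with no overlap. Smaller differences in the same direction were found in immature neutrophils (3.85 ± 0.28), mature neutrophils (2.18 ± 0.47), GMP (0.69 ± 0.11), early erythroid cells (0.87 ± 0.10), erythroblasts (0.53 ± 0.12) and dividing monocytes (0.33 ± 0.11), with adjusted p between 0.041 and 5.8e-12 (edgeR). The call in mature neutrophils was lost without NZB mouse 2 or 3 or NZW mouse 1 or 3, with the marker minimum doubled (1.504), and with markers that differ between the parents left out (1.69). That in dividing monocytes was lost without NZB mouse 2 (0.18) or any NZW mouse, with the replicate number as a block (0.32), with DESeq2 (0.33) and with the marker minimum doubled (0.31). The erythroblast call was lost without NZB mouse 2.

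The order of Ly6e was turned in several lymphoid classes. Mature B cells had 697.3, 541.2 and 393.6 CPM of Ly6e in NZB, 2115, 2097 and 1988 in NZW, and 1428, 1362 and 1366 in NZBWF1. NZB was lower by a log2 fold change of -1.93 ± 0.22 (adjusted p = 1.7e-15, edgeR), and the 3 strains did not overlap. NK cells had 31.7, 119.3 and 47.5 CPM in NZB and 719.0, 773.4 and 379.6 in NZW (-3.46 ± 0.37 on the log2 scale, adjusted p = 7.8e-13, edgeR). Ly6e was also lower in NZB in plasmacytoid dendritic cells (-1.19 ± 0.13) and pro-B cells (-1.08 ± 0.16). T cells, at 159.5, 687.1 and 170.4 CPM in NZB and 979.4, 927.7 and 739.4 in NZW, did not pass (-1.58 ± 0.53, adjusted p = 0.569, edgeR). Nor did Ly6e pass in classical monocytes, where NZB had 1149, 1366 and 1135 CPM and NZW 1133, 1448 and 1176 (-0.05 ± 0.11, adjusted p = 0.849, edgeR).

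The strain difference in Ly6e, signed as NZB minus NZW, was also compared between classes. It was higher in immature neutrophils than in GMP by 3.14 ± 0.30 on the log2 scale. It was lower in classical monocytes than in immature neutrophils by -3.94 ± 0.29, and lower in plasmacytoid dendritic cells, where NZB was below NZW, than in classical monocytes by -1.11 ± 0.12, with adjusted p of 1.9e-22, 1.3e-38 and 4.4e-14 (edgeR). All genes were called at 2.7%, 5.62% and 5.73% in these pairs. No pair set a class in which NZB was called higher against one in which it was called lower, so the turn of direction itself was not tested. T cells and mature B cells did not pass for Ly6e (0.19 ± 0.31, adjusted p = 0.995, edgeR).

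Ly6d, a B lineage mark, was lower in NZB in its classes of highest level. In mature B cells it was at 244.0, 338.2 and 492.0 CPM in NZB, at 2869, 2898 and 2696 in NZW, and at 1433, 1518 and 1713 in NZBWF1. The strains did not overlap, and NZB was lower by a log2 fold change of -2.98 ± 0.24 (adjusted p = 2.9e-33, edgeR). The NZB values rest on 44, 12 and 35 cells. In plasmacytoid dendritic cells Ly6d was at 1031, 1853 and 1390 CPM in NZB and at 2655, 2805 and 3318 in NZW (-1.003 ± 0.22 on the log2 scale, adjusted p = 0.040, edgeR), a call that was lost without NZB mouse 3, any NZW mouse, or NZBWF1 mouse 1 or 3. In cells of at least 2000 UMIs the value was -0.39 and was not called.

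The low Ly6d of NZB was not called by edgeR along the whole B lineage. In plasma cells NZB had 862.2, 943.5 and 1178 CPM and the 2 NZW mice with enough cells 1029 and 883.6, which overlapped (0.996 ± 0.48 on the log2 scale, adjusted p = 0.297, edgeR). This fitted value carries the scaling shift of plasma cells given above, while the CPM of the strains lay close together. In pro-B cells NZB had 600.2, 447.0 and 217.8 CPM and NZW 52.6, 233.2 and 87.7 (1.58 ± 0.67, adjusted p = 0.563, edgeR). In dividing pre-B cells the values were 23.5, 98.1 and 42.7 in NZB and 91.6, 105.4 and 180.0 in NZW (-0.97 ± 0.69, adjusted p = 0.725, edgeR). Small pre-B cells could not be tested, since no NZB mouse had 10 of them, and Ly6d stood at 951.5, 2328 and 881.7 CPM in NZW and 433.2, 638.7 and 788.7 in NZBWF1. Thinned to 1000 UMIs, 24.9% ± 6.6 of the mature B cells of NZB, 84.1% ± 3.6 of those of NZW and 67.2% ± 4.7 of those of NZBWF1 had a Ly6d UMI (SD, n = 3 mice). NK cells had none at this depth in any strain.

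Ly6a, which encodes Sca-1, was higher in NZB in plasmacytoid dendritic cells, T cells, NK cells and GMP. Plasmacytoid dendritic cells had 1164, 1885 and 1337 CPM in NZB, between 111.0 and 161.5 in NZW, and 395.1, 288.9 and 455.4 in NZBWF1. NZB exceeded NZW by a log2 fold change of 3.51 ± 0.31 (adjusted p = 0.00034, edgeR) without overlap. T cells had 689.2, 1052 and 810.9 CPM in NZB and 171.0, 276.5 and 143.6 in NZW (2.11 ± 0.26 on the log2 scale, adjusted p = 4.2e-07, edgeR). NK cells had 401.3, 238.6 and 361.2 CPM in NZB with 1 UMI in NZW, a ratio of 62.2 with a counting interval of 10.9 to 2486. GMP, at 23.8, 25.02 and 15.5 CPM in NZB and 0, 1.84 and 1.24 in NZW, also differed (4.12 ± 0.46, adjusted p = 6.6e-11, edgeR). Plasma cells had 2109, 2884 and 3192 CPM in NZB and 618.9 and 506.9 in the 2 NZW mice tested, which did not overlap but did not pass the test (3.23 ± 0.67 with the scaling shift of this class, adjusted p = 0.0901, edgeR).

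In mature B cells the order of Ly6a was the reverse. They had 69.7, 0 and 0 CPM in NZB (4 UMIs in all) and 122.9, 207.0 and 165.3 in NZW, lower in NZB by a log2 fold change of -2.30 ± 0.59 (adjusted p = 0.0075, edgeR), and this call was lost without NZB mouse 3 (-1.67). Ly6a passed the filter here through the other groups, since all 4 NZB UMIs came from NZB mouse 1. HSPC had 17.2, 21.9 and 10.6 CPM in NZB and 45.9, 135.6 and 41.4 in NZW, without overlap, on 12 and 33 UMIs, too few for the filter. Classical monocytes had 0, 6.37 and 0 CPM in NZB, 11.8, 18.8 and 40.8 in NZW and 80.6, 19.9 and 65.5 in NZBWF1 (NZB against NZW -3.29 ± 1.56, adjusted p = 0.223, edgeR).

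The strain difference in Ly6a was compared between classes in the same way. The signed difference was higher in T cells than in mature B cells by 4.38 ± 0.57 on the log2 scale (adjusted p = 6.0e-11, edgeR), in a pair where 0.379% of genes were called. Mature B cells of NZB had 4 Ly6a UMIs, all from NZB mouse 1, and the gene passed the filter there through the other groups. Neither the size nor a turn of direction is therefore read from this test. Comparisons with classical monocytes, where NZB had 2 Ly6a UMIs, are not read.

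**Figure D4:**
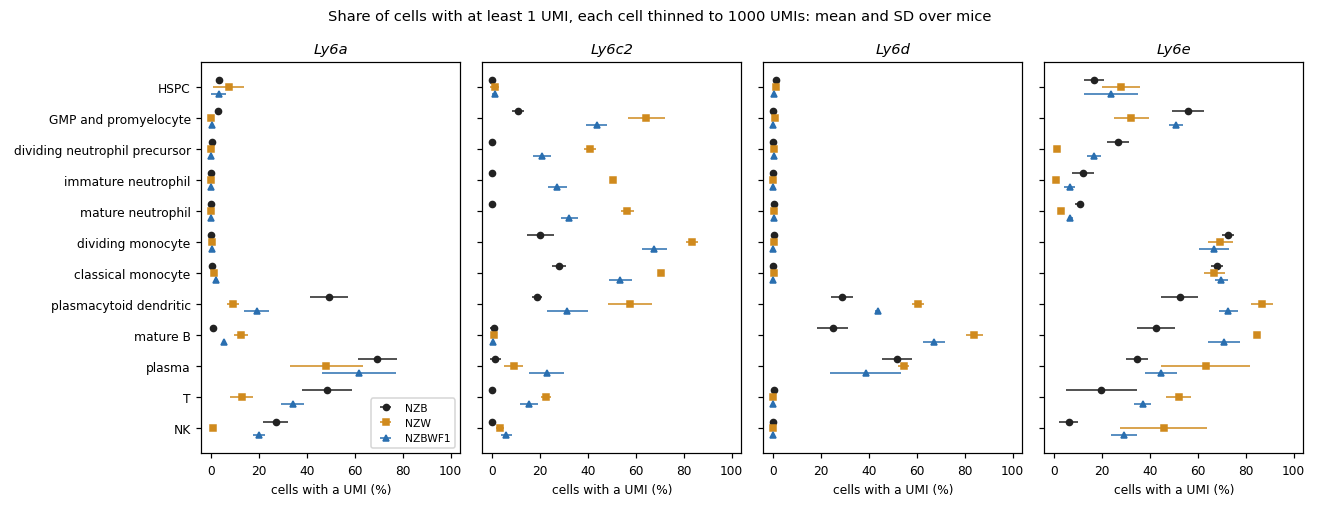
Percent of cells with at least 1 UMI of Ly6a, Ly6c2, Ly6d and Ly6e (horizontal axes) in 12 classes after each cell was thinned to 1000 UMIs, with the mean and SD over the mice of each strain. In mature neutrophils 56.4% of NZW cells and 0.0663% of NZB cells had a Ly6c2 UMI, and in mature B cells 84.1% of NZW cells and 24.9% of NZB cells had a Ly6d UMI.

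The share of cells with a UMI was counted as well. It is drawn from the same UMIs as the level and rises with it. Its calls are therefore not separate support for the differences in level. With every cell thinned to 1000 UMIs, the strains differed in 32 of 108 combinations of member and class (adjusted p below 0.05, exact permutation of the mice, two-sided), and in 32 without thinning. All 32 were among the 48 combinations that passed the filter on low counts, and 2.74% of all genes and classes that passed it reached the p of the last of these calls (0.0107, exact permutation). In 9 of the 32 a parent had 3 or fewer UMIs, so the gene passed through the other groups. With more than 3 UMIs in both parents, 23 of 37 were called, beside 2.6% of all such genes and classes. The smallest p of this test is 0.00357. Ly6c2 was found in 56.4% ± 2.7 of mature neutrophils of NZW, 32.3% ± 3.4 of those of NZBWF1 and 0.0663% ± 0.11 of those of NZB (SD, n = 3 mice). Without thinning these shares were 77.85%, 53.8% and 0.19%. In mature B cells, a lymphoid class with little Ly6c2, 0.679% of NZW cells had a Ly6c2 UMI when thinned, and the median depths before thinning were 1254 UMIs in mature B cells and 1929 in mature neutrophils. For Ly6a, 49.1% ± 8.0 of plasmacytoid dendritic cells of NZB, 9.13% ± 2.5 of those of NZW and 19.03% ± 5.3 of those of NZBWF1 had a UMI, and for Ly6e 26.7% ± 4.7, 1.18% ± 0.51 and 16.7% ± 2.8 of dividing neutrophil precursors in the same order. Without thinning they were 55.8%, 13.2% and 28.2% for Ly6a and 63.0%, 4.62% and 44.1% for Ly6e. The unthinned shares were 29.05%, 87.7% and 70.9% for Ly6d in mature B cells and 99.4%, 91.6% and 96.5% for Ly6g in mature neutrophils.

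The hybrid was then placed between its parents. On a scale with 0 at the NZB mean and 1 at the NZW mean, the NZBWF1 mean lay between the parents in 33 of the 33 combinations called between them, with a median of 0.504, quartiles of 0.430 and 0.607, and a range of 0.185 to 0.833. Of all genes called between the parents, 87.7% also had the NZBWF1 mean between them. In 9 of the 33 a parent had 3 or fewer UMIs. The other 24 all lay between, beside 87.4% of all called genes with more than 3 UMIs in each parent. This is a description without a test. The median was 0.480 for Ly6c2 (8 classes), 0.473 for Ly6e (11), 0.525 for Ly6a (5), 0.612 for Ly6c1 (4), 0.336 for Ly6d (2) and 0.722 for Ly6g (3). The ends of the range were Ly6d in plasmacytoid dendritic cells and Ly6e in dividing monocytes, both of which are calls lost without single mice. Combinations not called between the parents are left out. Of these, Ly6a in plasma cells lay between (0.535). Mean CPM of NZBWF1 was above both parents for Ly6c2 in plasma cells (377.6, NZB 22.3, NZW 246.9) and Ly6a in classical monocytes (55.3, NZB 2.12, NZW 23.8). Neither was called against NZW (adjusted p = 0.559 and 0.865, edgeR). The strains differed in both thinned shares (adjusted p = 0.0266 and 0.0362, exact permutation).

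**Figure D5:**
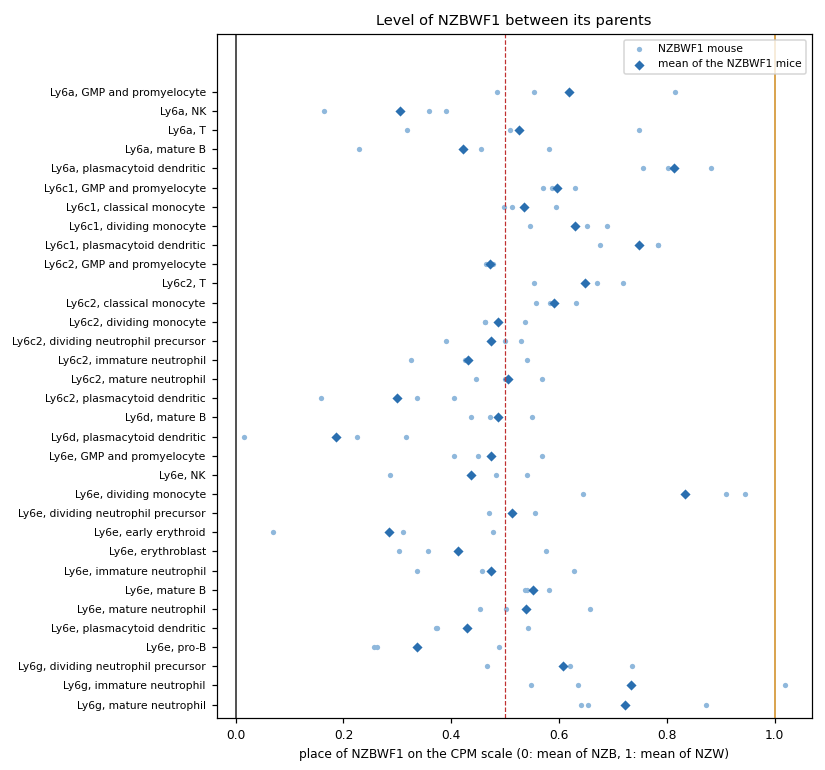
Place of NZBWF1 on the CPM scale for the 33 combinations of member and class called between the parents, from the mean of NZB (0) to the mean of NZW (1), with the dashed line midway. Small points are mice and diamonds are their means, which lay between 0.185 and 0.833 with a median of 0.504.

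Both comparisons of NZBWF1 with a parent share the hybrid mice, so their values are given side by side. Members differed from NZB in 22 of 48 tests (12 higher in NZBWF1, 10 lower), beside 2.84% of all tests (1.35% higher, 1.49% lower), and from NZW in 23 of 48 (11 higher, 12 lower), beside 1.01% of all tests (0.544% higher, 0.464% lower). In 6 of the tests against NZB and 5 of those against NZW a group had 3 or fewer UMIs, so that the gene passed the filter through other groups, and 4 and 5 of these were called. With more than 3 UMIs in both groups, 18 of 42 were called against NZB, beside 2.75% of all such tests, and 18 of 43 against NZW, beside 0.901%. For Ly6c2 in mature neutrophils NZBWF1 was above NZB, whose fitted size is not read because NZB had 3 UMIs, and below NZW by a log2 fold change of -1.02 ± 0.12 (adjusted p = 2.6e-07, edgeR). In classical monocytes Ly6c2 was above NZB by 1.77 ± 0.12 and below NZW by -0.61 ± 0.10 on the log2 scale (adjusted p = 2.0e-16 and 0.00012, edgeR). Ly6d in mature B cells was above NZB by 2.06 ± 0.25 and below NZW by -0.92 ± 0.16 (adjusted p = 7.9e-14 and 7.9e-06, edgeR). Ly6g in mature neutrophils was below NZB by -0.84 ± 0.10 (adjusted p = 7.4e-08, edgeR), and its difference from NZW of 0.32 ± 0.10 did not pass (adjusted p = 0.0967, edgeR). Ly6a in plasmacytoid dendritic cells was below NZB by -1.96 ± 0.24 (adjusted p = 0.0059, edgeR) and was not called against NZW (1.56 ± 0.35, adjusted p = 0.117, edgeR).

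The study's own contrast sets NZBWF1 against the mean of both parents on the log scale. Members were called in 11 of 48 tests, all 11 higher in NZBWF1, beside 0.409% of all tests (0.309% higher). Ly6c2 made up 7 of the 11, in GMP (0.83 ± 0.10), dividing monocytes (0.65 ± 0.09), classical monocytes (0.58 ± 0.10), T cells and all 3 neutrophil classes. Ly6c1 was called in classical monocytes and dividing monocytes, Ly6a in NK cells (a call lost with DESeq2, at 2.33), and Ly6e in dividing neutrophil precursors (1.29 ± 0.13, adjusted p = 1.7e-10, edgeR). The lowest adjusted p was 0.099 for Ly6d, in mature B cells, and 0.191 for Ly6g, in mature neutrophils (edgeR).

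These 11 combinations were among those in which the parents lay far apart, where a mean on the log scale falls below the mean of the levels. Against an arithmetic mean, made from UMIs of an NZB and an NZW mouse thinned to the same total and added, 0 of the 11 were called by edgeR (2 at an unadjusted p under 0.05), and their log2 fold changes lay between -0.40 and 0.60. In 7 of the 11 a parent had 3 or fewer UMIs, so their size on the log scale is not read. In the other 4 the log2 fold changes lay between 0.58 and 1.29 against the mean on the log scale and between -0.12 and 0.14 against the arithmetic mean, as for Ly6e in dividing neutrophil precursors (-0.12 ± 0.12, adjusted p = 0.887, edgeR). Of 46 tests against the arithmetic mean 1 was called, Ly6d in pro-B cells, which was lower in NZBWF1 by -1.60 ± 0.29 (adjusted p = 0.012, edgeR) at 78.7, 116.1 and 48.7 CPM. Against the mean on the log scale it was -1.42 ± 0.58 and was not called (adjusted p = 0.889, edgeR). The NZB values rest on 20, 23 and 46 cells. Each sample of the arithmetic mean adds an NZB and an NZW mouse, so its spread is not that of single mice. The call was named here after its value was seen.

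The shares of the Ly6c pair in the hybrid were set beside those that the parents' mean levels give. In classical monocytes Ly6c1 took 37.7% of the UMIs of the pair in NZB (mice 31.7% to 47.3%), 0.0518% in NZW and 7.46% in NZBWF1 (mice 6.92% to 8.67%). The mean levels of the parents would give 9.23%, against 7.78% from the mean levels of NZBWF1. In dividing monocytes Ly6c1 took 41.0% in NZB, 0 of 4948 UMIs in NZW, which allows a share of up to 0.0606%, and 5.29% in NZBWF1, where the parents' means give 6.97%. GMP had 40.0%, 0.0166% and 4.17%, where the parents' means give 4.88%, and plasmacytoid dendritic cells 41.5%, 0 of 916 UMIs (up to 0.328%) and 6.29%, where they give 9.97%. The mean levels of NZBWF1 give 5.36%, 4.19% and 7.15% in these 3 classes. The share of Ly6c1 in NZB thus stayed between 37.7% and 41.5% in these 4 classes. On mean levels NZBWF1 was below the share from the parents in all 4, a difference that was not tested. The NZBWF1 mice ranged from 4.21% to 6.74% in dividing monocytes and from 3.85% to 4.40% in GMP. In plasmacytoid dendritic cells they ranged from 5.23% to 11.9%, which reaches above the 9.97% from the parents.

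The pair was also found together in single cells. In dividing monocytes of NZBWF1, 94 of the 95 cells with a Ly6c1 UMI also had a Ly6c2 UMI, and 416 of all 435 cells had 1. In NZB, 234 of 328 dividing monocytes with Ly6c1 also had Ly6c2 (71.3%), while 56.7% of all NZB dividing monocytes had it. In classical monocytes of NZBWF1 the numbers were 116 of 142 (81.7%), with 69.85% among all cells. Deeper cells hold more UMIs of both, which these shares do not take into account.

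Gene lists chosen around the family gave the setting of these results, described here by counts. Of 43 other genes with the Ly6 or urokinase receptor domain, 38 were in the files and 9 passed the filter, in 31 tests. NZB and NZW differed in 13 of the 31 (5 higher and 8 lower in NZB), beside 7.43% of all tests. In 7 of the 13 a parent had 3 or fewer UMIs, so that the gene passed the filter through the other groups, and with more UMIs in both parents 6 of 24 were called. Ly6k was at 0.253 ± 0.44 CPM in GMP of NZB, 40.3 ± 11 in NZW and 14.4 ± 5.2 in NZBWF1 (SD, n = 3), and was lower in NZB in 5 of 6 classes tested. In GMP the NZB level was under the 0.576 CPM of 3 UMIs, so the filter fixes this direction and its p is not read. How many of the other Ly6k calls had so few UMIs is not given here, so the 5 of 6 is not read as a result. Cd177, another neutrophil antigen, was lower in classical monocytes of NZB (57.2 ± 12 against 151.6 ± 32 CPM). Gml2 was higher in early erythroid cells of NZB (13.04 ± 6.8 against 0.418 ± 0.36 CPM), and Lynx1 had no UMI in mature B cells of NZB and 110.7 ± 21 CPM in those of NZW. The NZW level of Gml2 was under the 0.801 CPM of 3 UMIs, so the filter fixes the direction of both genes. Against the mean of the parents 1 of 31 was called, Cd177 in classical monocytes, beside 0.409% of all tests.

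Neighbours of the family on chromosome 15 were also counted. Of 202 tests on 26 of these 49 genes, 13 were called between NZB and NZW (6.44%), close to the 7.43% of all tests. Their median log2 fold change was 0.05, beside -0.01 over all tests. Gml2 and Lynx1 above are among them, with Them6, lower in NZB in 3 of 5 classes, and Grina, higher in 2 of 11.

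The GPI anchor that holds the Ly6 proteins is made by a chain of enzymes, and their genes were called near the background. Of 189 tests on 25 of the 28 listed genes, 16 differed between NZB and NZW (9 higher and 7 lower), or 8.47%. Pigp was higher in NZB in 4 of 14 classes, as in dividing neutrophil precursors (60.8 ± 8.6 against 20.8 ± 4.6 CPM in NZW), and Pigx in 4 of 11, whereas Pigt was lower in 4 of 11. Other GPI-anchored surface proteins were called in 26 of 89 tests (29.2%, 8 higher and 18 lower in NZB), beside the same 7.43%. Among these, Bst1 was higher in NZB in 3 of 5 classes and lower in 1, for example higher in mature neutrophils (231.0 ± 22 against 53.4 ± 15 CPM). Cd52 was lower in 4 of 17 and higher in 1, for example lower in dividing pre-B cells (155.1 ± 33 against 556.3 ± 65).

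Since Ly6a and Ly6e are known interferon targets, 30 genes induced by type I interferon were counted as well. NZB and NZW differed in 33 of 153 tests (21.6%, 16 higher and 17 lower in NZB), beside 7.43% of all tests, with a median log2 fold change of 0.06. The directions were mixed: in classical monocytes Rsad2, an antiviral enzyme, was lower in NZB (8.48 ± 4.8 against 67.8 ± 3.1 CPM), while in mature neutrophils Rtp4 (48.9 ± 3.4 against 17.45 ± 1.6) and Trim30a (67.0 ± 9.5 against 28.4 ± 1.3) were higher. NZBWF1 was called against the mean of the parents on the log scale in 3 of 153 tests, beside 0.409% of all tests, for Ifit3, Oasl2 and Ifit1 in classical monocytes, all higher. Against the arithmetic mean, Ifit3 was called (0.93 ± 0.23 on the log2 scale, adjusted p = 0.0188, edgeR), and Oasl2 and Ifit1 were not (adjusted p = 0.0669 and 0.618). Whether interferon plays a part in the levels of Ly6a or Ly6e was not tested.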

How the data were processed

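The authors sequenced 10x Genomics 3' v3.1 libraries and, per the labels and the submitters' processing notes, used bcl2fastq 2.20 and Cell Ranger 3.1.0 with mm10. The deposited values are raw UMI counts per gene and cell. Cells were assigned to mice by the number after the barcode, taken as the line in the deposited list of merged libraries; that this is the order of the numbers is not stated in the sources used here. The annotation, and whether depth was equalised between libraries, are not given in the sources used here.

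Cells with under 1000 UMIs, under 500 genes or over 10% mitochondrial UMIs were left out, as in the study's methods, and doublets were removed with scrublet in scanpy 1.11.5. Cells were placed in 21 classes by marker RNA. UMIs were summed per mouse and class with at least 10 cells, and 18 classes with at least 2 mice per strain were tested with edgeR 4.0.16 (filterByExpr, TMM, quasi-likelihood, all 3 strains in the fit) in R 4.3.3, with Benjamini-Hochberg adjustment per class and a threshold of 0.05. NZW mouse 1 had too few plasma cells and NZB mouse 2 too few nonclassical monocytes. Strain differences were compared between classes in a model with the mouse as a block. Levels and shares were tested by exact permutation over mice, with log2(CPM + 1) for levels, and the same counts were made over all genes. Wilson intervals, exact ratio intervals (both 95%) and floors of 3 UMIs cover counting error only. The arithmetic mean of the parents added mice of the same number, which is an arbitrary match.

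The named genes were the 6 members in every class, up to 4 called genes per list by smallest p, and the 3 genes most like each member among those with at least 50 CPM in some class. The members and lists were chosen with earlier results of these data known. Listed genes without a row are not analysed here. On simulated data, 121 of 200 genes changed 2-fold were recovered in classical monocytes (6646 genes, 8 others called), 36 of 200 in mature B cells (3873 genes, 1 other) and 186 of 200 changed 4-fold between classical monocytes and immature neutrophils (7368 genes, 7 others). The alternatives were DESeq2 1.42.0, RLE factors, no filter, the replicate number as a block, stricter cell limits, no doublet removal, stricter or fewer markers, subtraction of free RNA, a sum of Ly6c1 and Ly6c2, an arithmetic mean of the parents, and leaving out each mouse. The deviations of same-numbered mice had a median r of 0.0271 over 158 pairs, from -0.178 to 0.449, with 31 over 0.1. The numbers were not taken to pair mice in the main fits. Whether same-numbered mice had something else in common was not tested.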

Additional observations from a re-analysis of the deposited data

Results flagged for a closer look

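In 13 of 24 tests the difference between NZB and NZW mice was itself different in a pair of cell classes (edgeR, mouse as a block, adjusted p below 0.05). Over all genes, between 0.379% and 5.73% were called in these pairs. In 7 of the 13 a parent had 3 or fewer UMIs of the gene in one of the classes, and in the other 6, the 4 for Ly6e, Ly6c2 for classical monocytes and GMP, and Ly6a for T and mature B cells, both parents had more in both. The Ly6a flag for T and mature B cells rests on 4 NZB UMIs in mature B cells, all from NZB mouse 1. Values are the log2 difference of NZB from NZW in the class named first minus that in the class named second.

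Ly6e was flagged in 4 pairs, with 3.14 for immature neutrophils and GMP, -0.763 for classical monocytes and GMP, -3.94 for classical monocytes and immature neutrophils, and -1.11 for plasmacytoid dendritic cells and classical monocytes. Ly6c2 was flagged in 3 pairs, with -9.57 for immature neutrophils and GMP, 1.38 for classical monocytes and GMP, and 9.94 for classical monocytes and immature neutrophils. Ly6c1 gave -11.28 for immature neutrophils and GMP and 10.23 for classical monocytes and immature neutrophils. Ly6a gave -7.38 for classical monocytes and GMP, 4.38 for T cells and mature B cells, and 6.86 for plasmacytoid dendritic cells and classical monocytes. Ly6d gave 8.49 for T cells and mature B cells.

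The sizes in those 7, and that of Ly6a for T and mature B cells, are not read as folds. NZB immature neutrophils had 0 UMIs of Ly6c1 and of Ly6c2, NZB classical monocytes had 2 of Ly6a, and NZW T cells had 0 of Ly6d. All 15 Ly6d UMIs in NZB T cells came from NZB mouse 3, which had 108 T cells. Without thinning, 0.309% of NZB T cells had a Ly6d UMI (mean over mice), which is 1 cell of that mouse. That flag thus rests on 1 mouse and 1 of its cells. Small pre-B cells could not be compared with mature B cells, since no NZB mouse had 10 of them.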

How the results depend on the processing

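NZB against NZW gave 33 calls of members in 48 tests, and 29 to 40 under the alternatives other than stricter cell limits. The numbers of tests differed: the 40 calls came from 102 tests with no filter, and the 29 from 44 tests with Ly6c1 and Ly6c2 summed. The share of all genes called under each alternative is not given here. In cells of at least 2000 UMIs and 1000 genes, 29 tests were left, with 18 calls between the parents, 7 against the mean of the parents, 10 against NZB and 13 against NZW, and 0 pairs of neighbouring classes differed, as with free RNA subtracted and with no difference counted in a mouse with 3 or fewer UMIs in both classes (added after seeing the data). With the replicate number as a block the calls were 38, 16, 29 and 28 in the same order, of 48 tests each.

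Against an arithmetic mean of the parents 1 test was called. Ly6c1 then stood at -0.113 in classical and -0.40 in dividing monocytes, Ly6c2 at -0.105 in GMP, -0.0531 in dividing monocytes, -0.13 in dividing neutrophil precursors, -0.211 in immature and -0.0971 in mature neutrophils, and Ly6e at -0.122 in dividing neutrophil precursors, all of which had been positive. The scale of the mean, the thinning and matching of mice, and the number of tests (46 in place of 48) all changed together, and the cause was not tested.

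Without 1 mouse, the calls ranged from 31 to 36 between the parents, 11 to 14 against their mean, 19 to 24 against NZB, 18 to 26 against NZW and 12 to 13 between classes, and the median place of NZBWF1 from 0.486 to 0.535. With 8 mice 0 to 0 pairs of neighbouring classes passed, where the smallest p is 0.00781. Few cells limit mature B, plasma and nonclassical monocyte values, and the pro-B values of NZB.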
